A study of Rattus norvegicus with 12 samples.

Results

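The mitochondrial ribosomal protein genes were taken as every gene whose symbol reads Mrpl or Mrps followed by a number and, in some, a final a, b or c, with that spelling of capitals. The rule found 69 genes among the 17315 genes of the count files, 41 named for the large subunit (Mrpl) and 28 for the small subunit (Mrps), and it uses no measured value. After a filter on low counts 66 were tested, 38 Mrpl and 28 Mrps. The 3 others were practically without reads, with 0 counts of Mrpl36, 1 count of Mrpl53 and 2 counts of Mrpl30 over all 12 libraries. All 28 Mrps genes were thus tested. Another 3 symbols of the same pattern are written in lower case in the files (mrpl9, mrpl11 and mrpl24), fall outside the rule and are given separately.

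Mitochondria carry their own ribosomes, built from RNA encoded by mitochondrial DNA and from proteins encoded in the nucleus, made in the cytosol and imported. These ribosomes translate the few mitochondrially encoded subunits of the respiratory chain and of ATP synthase. Many of their proteins descend from bacterial ribosomal proteins, and others were added during the evolution of mitochondria. Müller cells are the radial glia of the retina. They are known to rely strongly on glycolysis.

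RNA sequencing of polyadenylated RNA was done on 12 libraries of cultured Sprague-Dawley rat retinal cells labelled as Müller cells. SIRMu-1 (5 libraries) is a spontaneously immortalized line from rats of postnatal day 2-4, at passages 6, 11, 11, 11 and 20. The rMC-1 line (3 libraries, passages 23, 26 and 26) came from adult rats and carries the SV40 large T antigen. The primary cultures (4 libraries, passages 3 and 4) came from rats of postnatal day 2-4. All cells grew in medium with 25 mM glucose and 2 mM glutamine. Serum was 20% for SIRMu-1 and primary cultures and 10% for rMC-1. Gentamicin, an aminoglycoside that acts on bacterial ribosomes, was present at 87 mg/L together with amphotericin B at 2.2 mg/L in replicates 3 and 5 of SIRMu-1, in no rMC-1 culture and in all primary cultures. Between groups, the kind of culture cannot be told apart from passage, and for rMC-1 also not from serum, drugs and donor age. Each line is 1 line, so the spread within SIRMu-1 or rMC-1 is that between its cultures, and where libraries share a culture or animal, which the labels do not tell, the p-values are too small.

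Reads in genes came to 26349346 to 36730443 per SIRMu-1 library, 27351014 to 38125630 per rMC-1 library and 22582345 to 29812705 per primary library. Levels are given as mean ± SD of CPM, the count of a gene divided by the library's total and TMM factor, and cannot be compared between genes because they are not divided by gene length. Log2 fold changes are ± standard error from edgeR's quasi-likelihood fit over all 12 libraries, and a gene is called where its p-value, adjusted by the Benjamini-Hochberg method over the 11321 genes tested, is under 0.05. The 12 Müller glia markers examined summed to 3570 to 4690 CPM in SIRMu-1 and 1710 to 1790 CPM in rMC-1. In primary libraries they summed to 7970 to 8930 CPM. Most of each sum was Vim, with means of 3540 CPM in SIRMu-1, 1370 CPM in rMC-1 and 6210 CPM in primary cultures. Of the 10 markers that were tested, 0 were called higher and 7 lower in SIRMu-1, against primary cultures. In rMC-1 1 was called higher (Rlbp1) and 7 lower, against primary cultures. Of all genes 24.4% were called lower in SIRMu-1 and 38.9% in rMC-1. Rlbp1 had few reads, with 0.632 to 1.25 CPM in rMC-1 and 0 to 0.134 CPM in primary libraries. Sox2, Aqp4, Kcnj10 and Car2 were at 0 in every SIRMu-1 library, and Aqp4 and Car2 in every rMC-1 library, but Aqp4 (0 to 0.0881 CPM) and Kcnj10 (0.0447 to 0.353 CPM) were near 0 in primary libraries too. Sox2 had 11.9 to 18.0 CPM in rMC-1 and 0.224 to 8.15 CPM in primary libraries, and Sox9 averaged 71.6 ± 31.3 CPM in SIRMu-1 (n = 5), 0.0358 ± 0.04 CPM in rMC-1 (n = 3) and 52.2 ± 21.5 CPM in primary cultures (n = 4). The 7 fibroblast markers summed to 35600 to 52800 CPM in SIRMu-1, 3360 to 4860 CPM in rMC-1 and 25000 to 118000 CPM in primary libraries, mostly Col1a1 and Col3a1. In SIRMu-1 4 of the 7 were called lower than in primary cultures, among them Thy1 (0.0287 ± 0.031 against 566 ± 504 CPM), and in rMC-1 all 7. The 6 pericyte and smooth muscle markers summed to 5120 to 11400 CPM in SIRMu-1, 918 to 2940 CPM in rMC-1 and 5910 to 9970 CPM in primary libraries. The part of these markers in the results was not tested. In such bulk libraries fewer cells of a type and less RNA per cell cannot be told apart.

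Most mitochondrial ribosomal protein genes were called higher in each line than in primary cultures, and the rMC-1 line also had a minority that was called lower. In SIRMu-1 against primary cultures 40 of the 66 genes tested were called higher and 1 lower, where 46.1% of all genes were called, 21.7% higher and 24.4% lower. In rMC-1 against primary cultures 40 were called higher and 8 lower, where 70.8% of all genes were called, 31.9% higher and 38.9% lower. Between the lines, 12 were called higher and 21 lower in SIRMu-1 than in rMC-1, where 63.2% of all genes were called, 32.7% higher and 30.5% lower. The 40 higher in SIRMu-1 became 24, with 0 lower, when libraries whose deposited names carry the same code were summed. They became 18, with 0 lower, with only the SIRMu-1 cultures that had the drugs. Both settings leave fewer samples. Over all genes, 3072 of 11321 were called either way in the first setting and 3415 of 11535 in the second. The main fit called 5220 of 11321. The comparisons with primary cultures share the 4 primary libraries. The median log2 fold change over the members was 0.41 in SIRMu-1 against primary cultures (-0.02 over all genes tested), 0.54 in rMC-1 against primary cultures (-0.15 over all genes) and -0.14 in SIRMu-1 against rMC-1 (0.03 over all genes).

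The counts for rMC-1 depend on the scaling. Its TMM factors were 1.2553 to 1.2837, against 0.8393 to 1.0059 in the SIRMu-1 and primary libraries. Scaled by library totals alone, 54 members were called higher and 3 lower in rMC-1, against primary cultures, and 4 higher and 45 lower in SIRMu-1 than in rMC-1. That scaling moved the median of all genes to 0.32 for rMC-1 against primary cultures and to -0.40 for SIRMu-1 against rMC-1. Relative to the median of all genes, the members' median was 0.69 under both scalings for rMC-1 against primary cultures, and -0.17 under TMM and -0.19 under library totals for SIRMu-1 against rMC-1. The count of 8 lower in rMC-1 was 4 without rMC-1 replicate 2, and 5 without primary replicate 1, primary replicate 4, rMC-1 replicate 1, rMC-1 replicate 3 or SIRMu-1 replicate 1, 3 or 4. The count of 12 higher in SIRMu-1 than in rMC-1 was 6 without rMC-1 replicate 2 or without rMC-1 replicate 3.

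**Figure D1:**
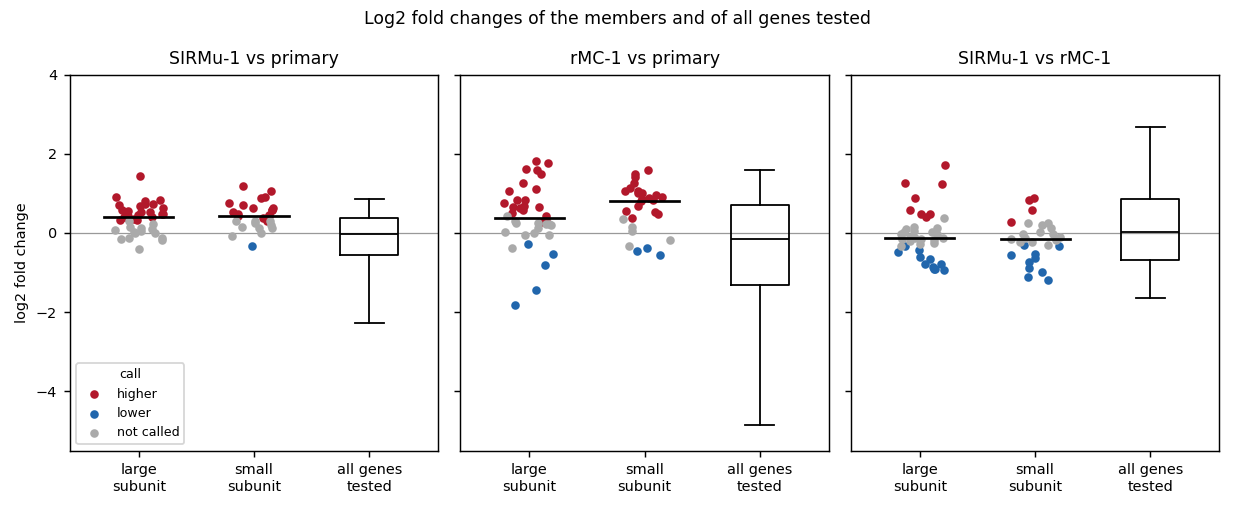
Log2 fold changes (vertical axis) of the 38 large-subunit and 28 small-subunit genes in each comparison, with a line at each median and color by call, beside a box for all 11321 genes tested (quartiles, whiskers at the 10th and 90th percentiles). Members lie mostly above 0 against primary cultures, with medians of 0.41 (large) and 0.42 (small) for SIRMu-1 and 0.37 (large) and 0.81 (small) for rMC-1.

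Every library of SIRMu-1 and rMC-1 held more of these transcripts in sum than any primary library. The summed level was 2037, 1995, 1945, 2040 and 1866 CPM in the SIRMu-1 libraries, 2248, 1945 and 2264 CPM in the rMC-1 libraries, and 1704, 1325, 1584 and 1628 CPM in the primary libraries. The means were 1977 ± 72.9 CPM in SIRMu-1 (n = 5), 2152 ± 180 CPM in rMC-1 (n = 3) and 1560 ± 164 CPM in primary cultures (n = 4). The lines overlapped each other, and rMC-1 replicate 2 was the lowest of its line. As a share of all gene counts, without TMM scaling, the members took 0.173% to 0.192% in SIRMu-1, 0.248% to 0.289% in rMC-1 and 0.119% to 0.164% in primary libraries. The 6 cycling-cell markers, among them Mki67, moved the same way. They summed to 168 to 1140 CPM in SIRMu-1, 2550 to 2810 CPM in rMC-1 and 31.6 to 64.3 CPM in primary libraries, and their part in the members' difference was not tested. Within SIRMu-1, replicate 2 had the lowest marker sum (168 CPM, against 641 to 1140 CPM in the other SIRMu-1 libraries) and a summed member level of 1995 CPM, inside the range of the others.

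Promoters of the members were compared by sequence before the single genes are described. RefSeq windows on assembly GRCr8, from 250 bases before to 50 bases after a gene's start, were given for 55 of the 69 members (57 windows). The ETS-family core CCGGAA, the site type read by the GABP regulator, stood in the windows of 28 of the 55 (50.9%). It stood in 16.5% of all genes with such windows, in 27.9% of the tested genes, in 52.4% of cytosolic ribosomal protein genes and in 39.6% of nuclear genes of oxidative phosphorylation. The YY1 motif AAGATGGC stood in 14 of the 55 (25.5%), against 3.62% of all genes, 5.64% of tested genes, 7.94% of cytosolic ribosomal protein genes and 20.8% of oxidative phosphorylation genes. The NRF1 motif (GCGC, any base, TGCGC) stood in 8 (14.5%), against 4.82% of all genes, 10.3% of tested genes, 9.52% of cytosolic ribosomal protein genes and 17.0% of oxidative phosphorylation genes. Both strands were searched, and the ETS core and the YY1 motif can overlap by their shared AA. Members with CCGGAA had a median log2 fold change of 0.41 (25 tested) and members without it 0.40 (27 tested) in SIRMu-1 against primary cultures, and 0.38 and 0.42 in rMC-1 against primary cultures. For the YY1 motif (13 with it and 39 without), the medians with and without it were 0.46 and 0.31 in SIRMu-1, and 0.25 and 0.43 in rMC-1. For the NRF1 motif (7 with it and 45 without), they were 0.29 and 0.41 in SIRMu-1, and 0.13 and 0.42 in rMC-1. None of these differences was tested. A match is a description of the letters and says nothing of a factor being bound.

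The 6 members on which the results below turn are shown by the 150 bases before their RefSeq start, 5′ to 3′ on the gene's strand (GRCr8), in lower case with CCGGAA or its reverse complement TTCCGG, and the NRF1 motif, in capitals. Mrpl23 (chr1:207116780-207116929, plus strand) and Mrps18c (chr14:9122907-9123056, minus strand) had the largest rises in SIRMu-1, Mrps25 (chr4:126237213-126237362, minus strand) was the member called lower there, and Mrpl17 (chr1:169575700-169575849, minus strand), Mrpl34 (chr16:18186297-18186446, plus strand) and Mrpl52 (chr15:31852786-31852935, plus strand) had the largest falls in rMC-1.
Mrpl23: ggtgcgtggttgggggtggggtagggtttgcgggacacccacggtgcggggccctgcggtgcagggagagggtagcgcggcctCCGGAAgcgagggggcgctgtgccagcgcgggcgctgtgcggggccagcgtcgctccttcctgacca
Mrps18c: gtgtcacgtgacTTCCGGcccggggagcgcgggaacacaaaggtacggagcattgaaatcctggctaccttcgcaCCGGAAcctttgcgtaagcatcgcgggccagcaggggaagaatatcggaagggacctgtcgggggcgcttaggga
Mrps25: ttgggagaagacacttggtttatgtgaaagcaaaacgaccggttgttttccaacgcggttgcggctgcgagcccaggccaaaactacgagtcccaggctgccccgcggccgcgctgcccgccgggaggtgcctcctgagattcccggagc
Mrpl17: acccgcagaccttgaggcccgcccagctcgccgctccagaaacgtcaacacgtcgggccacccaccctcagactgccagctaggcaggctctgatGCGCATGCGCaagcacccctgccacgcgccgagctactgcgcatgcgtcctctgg
Mrpl34: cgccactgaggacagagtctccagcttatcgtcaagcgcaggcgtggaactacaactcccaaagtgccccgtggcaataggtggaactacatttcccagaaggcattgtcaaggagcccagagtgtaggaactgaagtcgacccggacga
Mrpl52: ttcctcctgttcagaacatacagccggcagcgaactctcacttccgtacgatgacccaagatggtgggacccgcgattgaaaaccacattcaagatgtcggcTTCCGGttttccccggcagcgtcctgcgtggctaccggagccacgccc
The stretches of Mrpl23 and Mrpl52 hold 1 ETS core each and that of Mrps18c holds 2. The Mrpl17 stretch holds an NRF1 motif and no ETS core, and those of Mrps25 and Mrpl34 hold none of these letters. Of the 3 genes that fell in rMC-1, Mrpl52 thus has the core and Mrpl17 and Mrpl34 lack it in this stretch.

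**Figure D2:**
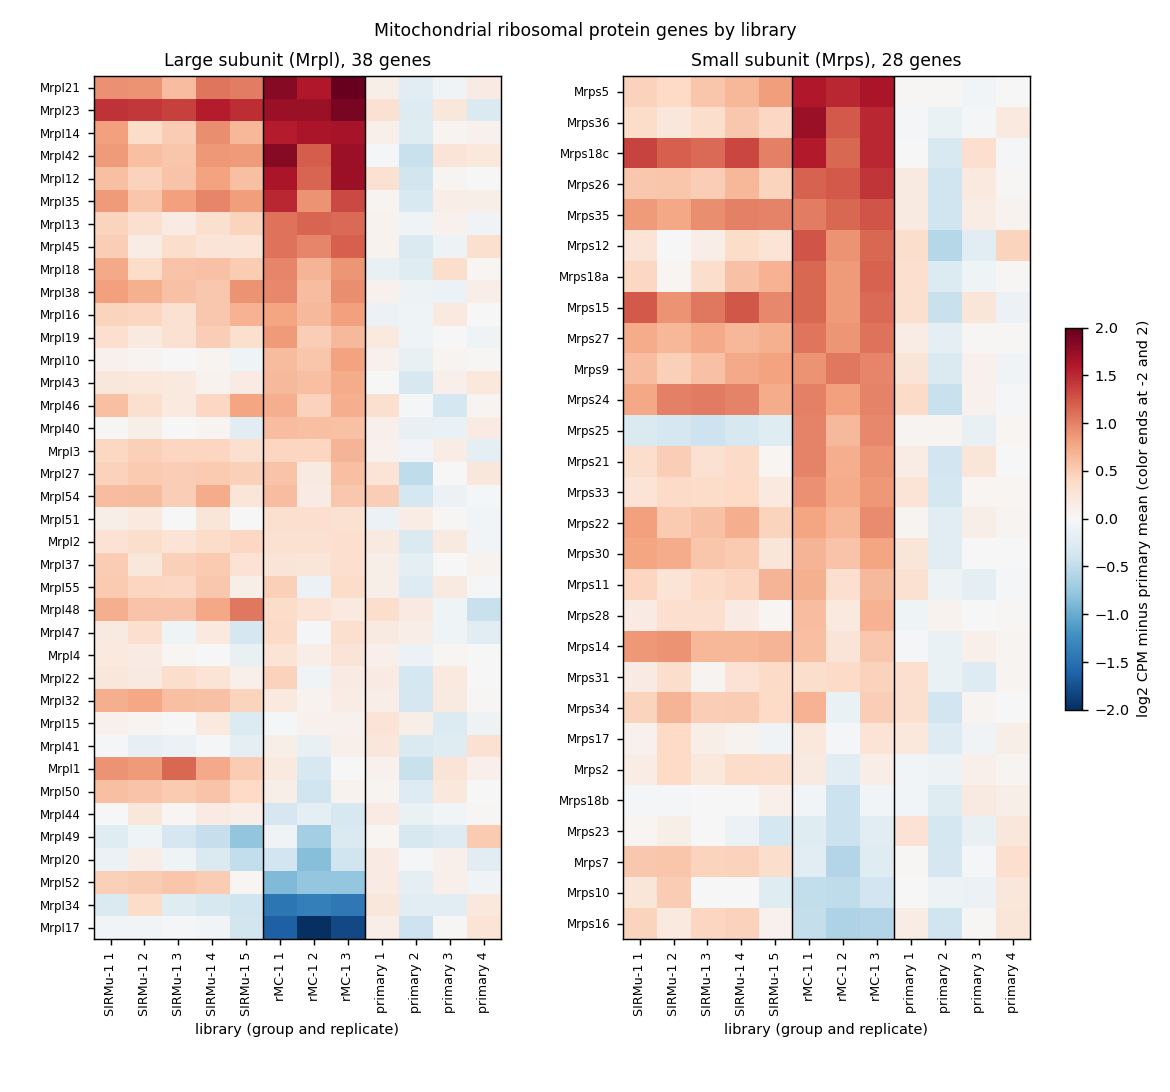
Log2 CPM of the 66 members tested in each of the 12 libraries (columns) minus the mean of the 4 primary libraries, for large-subunit genes (left) and small-subunit genes (right), ordered by the log2 fold change of rMC-1 against primary cultures. Most rows are red in both lines, and Mrpl17, Mrpl34 and Mrpl52 at the foot of the left panel are deep blue in rMC-1.

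Among the members, Mrpl23 had the largest rise in SIRMu-1 and Mrpl21 the largest in rMC-1, each against primary cultures. Mrpl23, a protein at the exit of the tunnel through which the new peptide leaves the ribosome, had 41.1, 40.0, 38.9, 44.6 and 41.9 CPM in SIRMu-1 libraries, 50.1, 49.9 and 56.2 CPM in rMC-1 libraries, and 18.7, 12.6, 17.7 and 12.4 CPM in primary libraries. Every library of both lines lay above every primary library. The log2 fold change was 1.43 ± 0.14 in SIRMu-1 against primary cultures (edgeR adjusted p = 1.92e-05) and 1.76 ± 0.15 in rMC-1 against primary cultures (edgeR adjusted p = 1.28e-06). Mrpl21, a large-subunit protein with a bacterial counterpart, had 17.7, 17.4, 14.3, 19.6 and 19.1 CPM in SIRMu-1, 33.2, 28.5 and 37.2 CPM in rMC-1, and 10.1, 8.12, 8.90 and 10.5 CPM in primary libraries. The 3 groups did not overlap, with rMC-1 highest and primary cultures lowest. Its log2 fold change was 0.91 ± 0.13 in SIRMu-1 (edgeR adjusted p = 0.000265) and 1.81 ± 0.15 in rMC-1 (edgeR adjusted p = 1.05e-06), each against primary cultures, and -0.90 ± 0.14 between SIRMu-1 and rMC-1 (edgeR adjusted p = 0.000151). Mrpl23 did not pass the test between the lines (log2 fold change -0.33 ± 0.14, edgeR adjusted p = 0.0543), although their libraries did not overlap. RefSeq names 1 pseudogene after Mrpl23 and none after Mrpl21.

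In the stalk, the flexible arm that recruits translation factors, the lines differed. Mrpl12, the stalk protein itself, had 42.2, 38.3, 41.3, 48.8 and 42.5 CPM in SIRMu-1, 86.9, 62.8 and 91 CPM in rMC-1, and 34.6, 21.7, 29.0 and 27.9 CPM in primary libraries. The groups did not overlap. Its log2 fold change was 0.59 ± 0.15 in SIRMu-1 and 1.50 ± 0.17 in rMC-1 against primary cultures (edgeR adjusted p = 0.00689 and 9.46e-06), and -0.91 ± 0.16 in SIRMu-1 against rMC-1 (edgeR adjusted p = 0.000338). Mrpl10, which anchors the stalk, was called higher in rMC-1 than in primary libraries (0.66 ± 0.10, edgeR adjusted p = 7.88e-05) and had a log2 fold change of 0.02 ± 0.09 in SIRMu-1 against primary cultures, with a 95% interval of -0.18 to 0.21. The stalk-base gene listed as mrpl11 was called higher in SIRMu-1 (1.46 ± 0.12, edgeR adjusted p = 7.67e-06) and in rMC-1 (0.93 ± 0.13, edgeR adjusted p = 6.1e-05) than in primary cultures, and higher in SIRMu-1 than in rMC-1 (0.53 ± 0.13, edgeR adjusted p = 0.00345).

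Around the tunnel exit, 1 of the 6 genes listed (16.7%) was called higher in SIRMu-1, against primary cultures, a share near the 21.7% of all genes. It was Mrpl23, and the other 5 had log2 fold changes between 0.07 and 0.29. In rMC-1 2 of the 6 (33.3%) were called higher and 1 lower, beside 31.9% and 38.9% of all genes. Here Mrpl45, which ties the ribosome to the inner membrane, was also called higher, with 74.2, 69.2 and 80.8 CPM in rMC-1 libraries against 36.7, 28.7, 32.8 and 44.1 CPM in primary libraries (log2 fold change 1.07 ± 0.14, edgeR adjusted p = 3.44e-05). These groups did not overlap, while SIRMu-1 had 39.1 to 49.6 CPM and did overlap the primary libraries (0.29 ± 0.12, edgeR adjusted p = 0.0738, and 0.41 with an edgeR adjusted p of 0.015 without primary replicate 4). Mrpl44, an RNase III-like protein beside the exit, was called lower in rMC-1, against primary cultures, by a small margin (-0.28 ± 0.11, edgeR adjusted p = 0.0414), a call that was lost without any 1 library other than primary replicate 2 or SIRMu-1 replicate 2, with values of -0.30 to -0.18, and 0.19 under library totals alone. In the central protuberance, the crest of the large subunit, 7 of the 8 genes listed (87.5%) were called higher in SIRMu-1, against primary cultures. Of all genes 21.7% were called higher. The largest rises were those of Mrpl48 at 0.72 ± 0.16 and Mrpl38 at 0.71 ± 0.12. Libraries did not overlap, with SIRMu-1 higher, for 4 of the 8, beside 17.2% of all genes. In rMC-1 5 (62.5%) were called higher and Mrpl52 (12.5%) lower, beside 31.9% and 38.9% of all genes.

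Mrpl17, Mrpl34 and Mrpl52, all of the large subunit, went the other way in rMC-1. Mrpl17 had 138, 138, 140, 137 and 111 CPM in SIRMu-1, 45.9, 35.5 and 40.7 CPM in rMC-1, and 156, 107, 145 and 172 CPM in primary libraries. SIRMu-1 overlapped the primary cultures, and every rMC-1 library lay far below both. The log2 fold change was -1.83 ± 0.17 in rMC-1 against primary cultures (edgeR adjusted p = 2.27e-06), 1.71 ± 0.16 in SIRMu-1 against rMC-1 (edgeR adjusted p = 4.71e-06) and -0.13 ± 0.14 in SIRMu-1 against primary cultures, with a 95% interval of -0.44 to 0.19. RefSeq names 2 pseudogenes after Mrpl17, and reads shared with them may have been set aside. Mrpl34 had 16, 25.2, 16.5, 15.7 and 14.8 CPM in SIRMu-1, 7.18, 7.62 and 7.24 CPM in rMC-1, and 22.8, 16.8, 16.9 and 22.6 CPM in primary libraries. Every rMC-1 library lay below all others (-1.43 ± 0.21 against primary cultures, edgeR adjusted p = 7.22e-05), and SIRMu-1 lay just below the primary range except replicate 2, which was above it (-0.17 ± 0.17, not called).

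The balance between the subunits was taken with and without Mrpl17, the member with the largest fall in rMC-1. No other gene was left out in this way, and summed CPM is not divided by gene length. The share of Mrpl17 in the members' summed CPM was 5.94% to 7.20% in SIRMu-1, 1.8% to 2.04% in rMC-1 and 8.06% to 10.6% in primary libraries, with no overlap. The summed CPM of the Mrps genes over that of the Mrpl genes was 0.645 to 0.678 in SIRMu-1, 0.706 to 0.716 in rMC-1 and 0.574 to 0.608 in primary libraries, again with no overlap. Without Mrpl17 the ratio was 0.727 to 0.753 in SIRMu-1, 0.729 to 0.742 in rMC-1 and 0.657 to 0.733 in primary libraries. The groups then overlapped, with primary replicate 4 inside the range of both lines and the other primary libraries below it. By symbol, 23 Mrpl genes were called higher and 0 lower in SIRMu-1 than in primary cultures, beside 17 Mrps genes higher and 1 lower. In rMC-1 20 Mrpl genes were called higher and 5 lower, with a median of 0.37. The Mrps genes gave 20 higher and 3 lower there, with a median of 0.81. The shares called higher were 60.5% of Mrpl and 60.7% of Mrps genes in SIRMu-1, and 52.6% and 71.4% in rMC-1. Of all genes 21.7% were called higher and 24.4% lower in SIRMu-1, and 31.9% and 38.9% in rMC-1. The symbol is not always the place in the particle, since the products of Mrps18a and Mrps30 are known to sit in the large subunit.

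**Figure D3:**
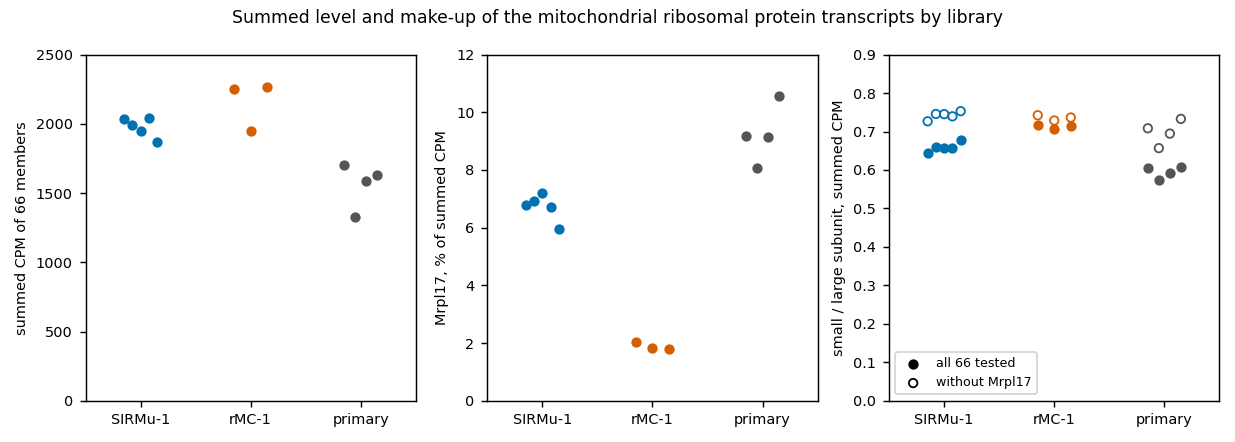
Summed CPM of the 66 members tested (left), the share of that sum from Mrpl17 (middle) and the ratio of Mrps to Mrpl summed CPM with and without Mrpl17 (right), each point 1 library. The sum is higher in every library of SIRMu-1 and rMC-1 than in any primary library, Mrpl17 gives 1.8% to 2.04% of it in rMC-1, and the ratios without Mrpl17 (open points) overlap between the groups.

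Mrpl52, Mrps25 and Mrps7 were called in opposite directions in the lines. Mrpl52 had 59.4, 61.1, 62.7, 60.7 and 44.2 CPM in SIRMu-1, 23.1, 25.0 and 25.0 CPM in rMC-1, and 47.8, 37.5, 46.0 and 40.7 CPM in primary libraries. The rMC-1 libraries were lowest without overlap, and SIRMu-1 lay above the primary libraries except replicate 5. It was called higher in SIRMu-1 (0.42 ± 0.12, edgeR adjusted p = 0.0118) and lower in rMC-1 (-0.82 ± 0.14, edgeR adjusted p = 0.000203), each against primary cultures, and the direct test between SIRMu-1 and rMC-1 gave 1.24 ± 0.13 (edgeR adjusted p = 1.11e-05). Mrps25, a small-subunit protein with no bacterial counterpart, had 21.8, 21.0, 19.9, 21.3 and 22.4 CPM in SIRMu-1, 52.5, 41.8 and 51.6 CPM in rMC-1, and 27.5, 27.7, 23.9 and 27.2 CPM in primary libraries. The 3 groups did not overlap. It was the member called lower in SIRMu-1 than in primary cultures (-0.32 ± 0.09, edgeR adjusted p = 0.0151), was called higher in rMC-1, against primary cultures (0.87 ± 0.11, edgeR adjusted p = 1.96e-05), and had the largest fall of all members tested in SIRMu-1 against rMC-1 (-1.19 ± 0.10, edgeR adjusted p = 1.86e-06). The small fall in SIRMu-1 was not called under library totals alone (edgeR adjusted p = 0.06). It was also not called with libraries of the same code summed, or with only the SIRMu-1 cultures that had the drugs.

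Mrps7, a protein of the head of the small subunit, had 70.9, 71.4, 65.9, 66.7 and 62.0 CPM in SIRMu-1, 41.4, 32.2 and 40.9 CPM in rMC-1, and 49.2, 38.5, 48.0 and 61.2 CPM in primary libraries. SIRMu-1 was highest without overlap, and rMC-1 overlapped the low primary libraries. The difference between SIRMu-1 and rMC-1 was 0.82 ± 0.14 (edgeR adjusted p = 0.000403) and that between SIRMu-1 and primary cultures 0.45 ± 0.13 (edgeR adjusted p = 0.0137). The fall in rMC-1 against primary cultures (-0.37 ± 0.15, edgeR adjusted p = 0.0417) was likewise not called without any 1 library other than primary replicate 2 or SIRMu-1 replicate 2, with values of -0.38 to -0.18, and was 0.09 under library totals alone. Mrps16, the gene of an early-described human defect of mitochondrial translation, had 22.9 to 29.7 CPM in SIRMu-1, 14.2 to 15.6 CPM in rMC-1 and 16.4 to 25.6 CPM in primary libraries. It was called lower in rMC-1, against primary cultures (-0.57 ± 0.16, edgeR adjusted p = 0.00709) and was -0.10 under library totals alone. Mrpl20 was called lower in rMC-1 at -0.54 ± 0.17 (edgeR adjusted p = 0.0127) and was -0.32 without rMC-1 replicate 2 (edgeR adjusted p = 0.112). Mrps10 stood at -0.46 ± 0.19 (edgeR adjusted p = 0.0426) and was not called without any one of primary replicates 1 and 4, the 3 rMC-1 libraries and SIRMu-1 replicates 1, 3 and 4 (-0.47 to -0.36). Among the alternatives other than left-out libraries, the highest value in rMC-1 was -0.06 for Mrpl20 and 0 for Mrps10.

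**Figure D4:**
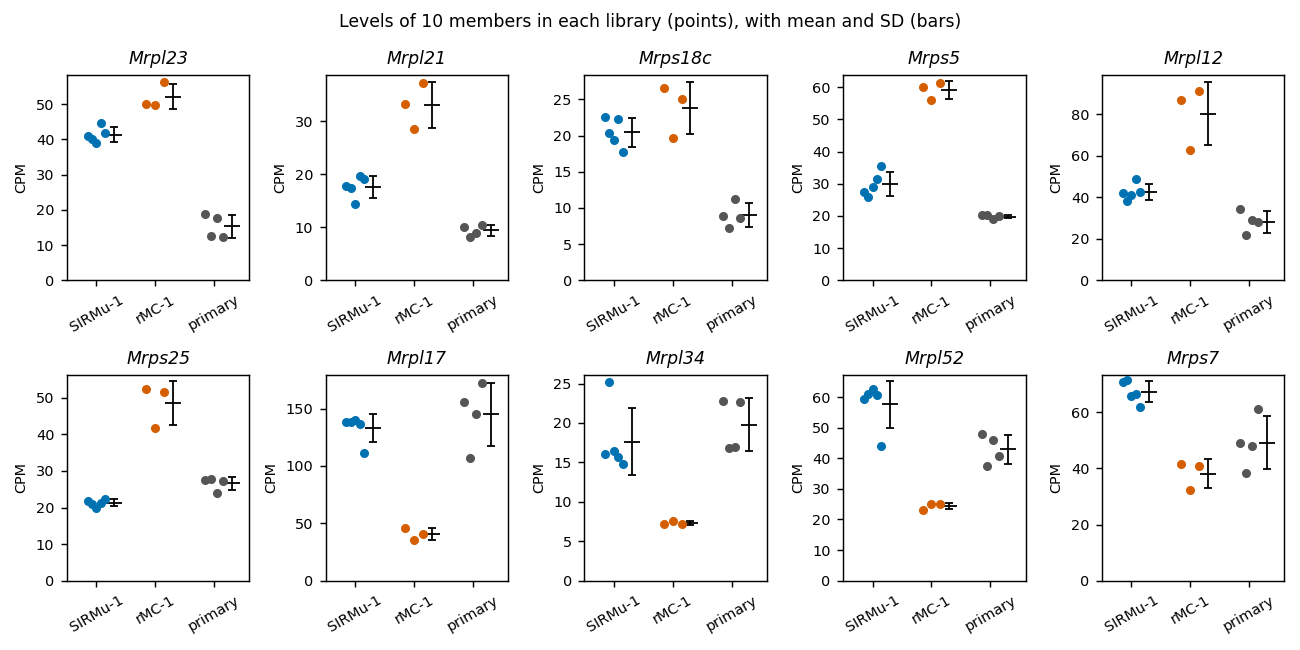
CPM of 10 members in each library (points), with the group mean and SD (black bars), for SIRMu-1 (n = 5), rMC-1 (n = 3) and primary cultures (n = 4). Mrpl23, Mrpl21 and Mrps18c lie above primary cultures in both lines, Mrps25 is highest in rMC-1 and lowest in SIRMu-1, and Mrpl17, Mrpl34 and Mrpl52 are lowest in rMC-1.

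The genes Mrps18a, Mrps18b and Mrps18c are relatives of 1 bacterial protein of the small subunit, and the differences among the 3 were not tested. Mrps18c had 22.6, 20.3, 19.4, 22.3 and 17.8 CPM in SIRMu-1, 26.6, 19.7 and 25.1 CPM in rMC-1, and 8.87, 7.19, 11.2 and 8.64 CPM in primary libraries. Both lines lay above the primary cultures without overlap and overlapped each other (1.19 ± 0.15 in SIRMu-1, edgeR adjusted p = 0.000107, and 1.41 ± 0.17 in rMC-1, edgeR adjusted p = 1.54e-05, each against primary cultures). Mrps18a was called higher in rMC-1 (1.05 ± 0.18, edgeR adjusted p = 0.000254). In SIRMu-1 it was on the threshold, at 0.42 ± 0.16 with an edgeR adjusted p of 0.04997 and values of 0.33 to 0.54 on leaving out 1 library, and the call was lost without any 1 library other than primary replicate 1 or SIRMu-1 replicate 2. Mrps18b was not called in either line, at 0.00 ± 0.11 in SIRMu-1 (95% interval -0.25 to 0.26) and -0.18 ± 0.13 in rMC-1 (95% interval -0.47 to 0.11).

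Mrps5, which lies where messenger RNA enters the small subunit, had 27.4, 26.0, 29.1, 31.4 and 35.5 CPM in SIRMu-1, 60.0, 56.1 and 61.3 CPM in rMC-1, and 20.2, 20.2, 19.0 and 19.9 CPM in primary libraries. The groups did not overlap, with rMC-1 highest (1.58 ± 0.11 in rMC-1, edgeR adjusted p = 4.01e-07, and 0.59 ± 0.10 in SIRMu-1, edgeR adjusted p = 0.000626, each against primary cultures). Mrps12, a protein of the decoding centre, was called higher in rMC-1, against primary cultures (1.05 ± 0.21, edgeR adjusted p = 0.000979) and stood at 0.15 ± 0.19 in SIRMu-1, with a 95% interval of -0.28 to 0.59. Mrps15 and Mrps35 were called higher in SIRMu-1 (1.05 ± 0.16 and 0.90 ± 0.13) and in rMC-1 (1.02 ± 0.18 and 1.13 ± 0.14), all against primary cultures. Mrps22, a gene of inherited mitochondrial disease in humans, was called higher in SIRMu-1 (0.62 ± 0.11) and in rMC-1 (0.80 ± 0.13). Mrpl3, of the large subunit, was called higher in SIRMu-1 (0.41 ± 0.09) and in rMC-1 (0.51 ± 0.11). Mrps36 had 11.9 to 14.8 CPM in SIRMu-1, 23.9 to 33.7 CPM in rMC-1 and 9.32 to 11.7 CPM in primary libraries. RefSeq now names it Kgd4, a subunit of the α-ketoglutarate dehydrogenase complex, with 3 pseudogenes and a like gene, so its count is uncertain (1.50 ± 0.14 in rMC-1 against primary cultures, edgeR adjusted p = 3.05e-06).

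Of the large subunit, Mrpl14, at the contact with the small subunit, and Mrpl42 completed the 5 largest rises in rMC-1. Mrpl14 had 13.2 to 19.6 CPM in SIRMu-1, 30.5 to 32.0 CPM in rMC-1 and 8.68 to 11.0 CPM in primary libraries, and Mrpl42 had 15.9 to 19.8, 25.2 to 38.2 and 7.97 to 13.0 CPM in the same 3 groups. Neither gene overlapped between groups. Their log2 fold changes in rMC-1 against primary cultures were 1.61 ± 0.15 and 1.58 ± 0.19. RefSeq names 2 pseudogenes and 1 like gene after Mrpl42, so its count is uncertain. The other members called higher in rMC-1 ranged from 0.28 to 1.50, and the 35 others called higher in SIRMu-1, against primary cultures, from 0.30 to 0.89. Libraries did not overlap, with the line higher, for 34 members in SIRMu-1 (17.2% of all genes) and for 41 in rMC-1 (32.7% of all genes), and with the line lower for 1 member (18.1%) and for 7 (38.2%). Between SIRMu-1 and rMC-1 they did not overlap for 13 members higher (32% of all genes) and 22 lower (31%). Mrpl1 had few reads, 1.16 to 1.82 CPM in SIRMu-1, 0.659 to 0.940 CPM in rMC-1 and 0.599 to 0.984 CPM in primary libraries. It was called higher in SIRMu-1 than in rMC-1 (0.87 ± 0.29, edgeR adjusted p = 0.0188), which was lost without rMC-1 replicate 2 (0.65, edgeR adjusted p = 0.122) or 3 (0.78, edgeR adjusted p = 0.0871).

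What the members called have in common was looked at by origin and by copies. Of the 39 tested members listed as having a bacterial counterpart, 24 were called higher and 0 lower in SIRMu-1, and 22 higher and 6 lower in rMC-1, against primary cultures. The 27 not so listed include Mrps18a, although it is a relative of a bacterial protein. Of these 27, 16 were higher and 1 lower in SIRMu-1, and 18 higher and 2 lower in rMC-1. Called higher were 61.5% of those listed and 59.3% of the others in SIRMu-1, beside 21.7% of all genes. In rMC-1 the shares called higher were 56.4% and 66.7%, beside 31.9%, and those called lower 15.4% and 7.41%, beside 38.9%. Among the 23 tested members with a named pseudogene or like gene the medians were 0.31 in SIRMu-1 and 0.31 in rMC-1. Among the 43 with neither they were 0.45 in SIRMu-1 and 0.66 in rMC-1. The 23 include Mrps18c, Mrps25 and Mrpl45, with 1 named pseudogene each. The spread within groups was small. The median SD over members was 0.14 in SIRMu-1, 0.15 in rMC-1 and 0.22 in primary cultures on the log2 CPM scale, beside 0.20, 0.14 and 0.23 over all genes above 3 log2 CPM in the same groups.

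Whether the drugs moved these genes could be looked at within SIRMu-1, where 2 cultures had gentamicin and amphotericin B and 3 did not. The cultures with drugs were at passages 11 and 20, and those without at passages 6, 11 and 11. Drugs and passage thus cannot be fully told apart here. Of the 66 members 0 were called in cultures with drugs against those without, by edgeR and by DESeq2, where 0% of all genes were called by edgeR and 4 genes by DESeq2. At an unadjusted p under 0.05 edgeR had 1 member, Mrpl47 (-0.44 ± 0.19, named after its value was seen), and 433 of all genes (3.82%). The log2 fold changes of the members ran from -0.44 to 0.19, 17 above 0 and 49 below, with a median of -0.07 (0 over all genes). The widest 95% interval extended 0.84 to either side, so changes below that size could not be detected for every gene. With only the 2 SIRMu-1 cultures that had the drugs, as all primary cultures did, 18 members were called higher and 0 lower than in primary cultures, and the median was 0.36. That fit has fewer libraries and called 3415 of 11535 genes either way, with a median of -0.05 over all genes. The main fit called 5220 of 11321.

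Another 7 mitochondrial ribosome proteins go by other symbols, and they gave 5 higher and 1 lower in each line against primary cultures. The share called higher was 71.4% in each line, beside 21.7% of all genes in SIRMu-1 and 31.9% in rMC-1. Dap3, the GTP-binding protein of the small-subunit head, stood at 0.91 ± 0.09 in SIRMu-1 and 0.51 ± 0.10 in rMC-1. Ptcd3 (0.83 ± 0.09 in SIRMu-1 and 1.60 ± 0.10 in rMC-1) and Gadd45gip1 (0.96 ± 0.18 and 1.58 ± 0.20 in the same lines) were also called higher in both. Mrp63, a large-subunit protein, was called lower in SIRMu-1 (-0.68 ± 0.18) and in rMC-1 (-1.53 ± 0.21). Of the lower-case symbols, mrpl9 was called higher in SIRMu-1 (0.61 ± 0.11) and in rMC-1 (1.18 ± 0.12), and mrpl24 had log2 fold changes of 0.17 ± 0.15 in SIRMu-1 and -0.40 ± 0.18 in rMC-1, neither of them called.

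The factors that build and serve the mitochondrial ribosome were counted by role. Of 23 assembly and ribosomal RNA factors 7 were called higher and 3 lower in SIRMu-1, and 12 higher and 5 lower in rMC-1, against primary cultures, with medians of 0.13 and 0.48. As shares, 30.4% were called higher in SIRMu-1, beside 21.7% of all genes, and 52.2% in rMC-1, beside 31.9%. Gtpbp10, a GTPase of large-subunit assembly, had 15.9 to 17.3 CPM in SIRMu-1, 36.2 to 44.5 CPM in rMC-1 and 11.0 to 12 CPM in primary libraries (0.53 ± 0.09 in SIRMu-1 and 1.82 ± 0.10 in rMC-1). Malsu1, an assembly factor that binds Mrpl14, was called higher in SIRMu-1 (0.63 ± 0.14) and in rMC-1 (1.37 ± 0.15), while Mpv17l2, also of large-subunit assembly, was called lower (-0.67 ± 0.14 and -1.28 ± 0.17). Of 14 translation factors 7 were called higher and 0 lower in SIRMu-1, and 5 higher and 1 lower in rMC-1, so that 50% were called higher in SIRMu-1 and 35.7% in rMC-1. Tsfm, the exchange factor of the elongation factor Tufm, was called higher in SIRMu-1 (0.92 ± 0.14) and stood at 0.13 ± 0.15 in rMC-1. Mrrf, which recycles ribosomes after a protein is finished, was called lower in rMC-1 (-1.09 ± 0.15). Of 15 mitochondrial tRNA synthetases 4 were called higher and 0 lower in SIRMu-1 and 3 higher and 1 lower in rMC-1, with Yars2 at 0.79 ± 0.14 and 1.48 ± 0.16. The shares called higher, 26.7% in SIRMu-1 and 20% in rMC-1, lie near or below those of all genes.

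**Figure D5:**
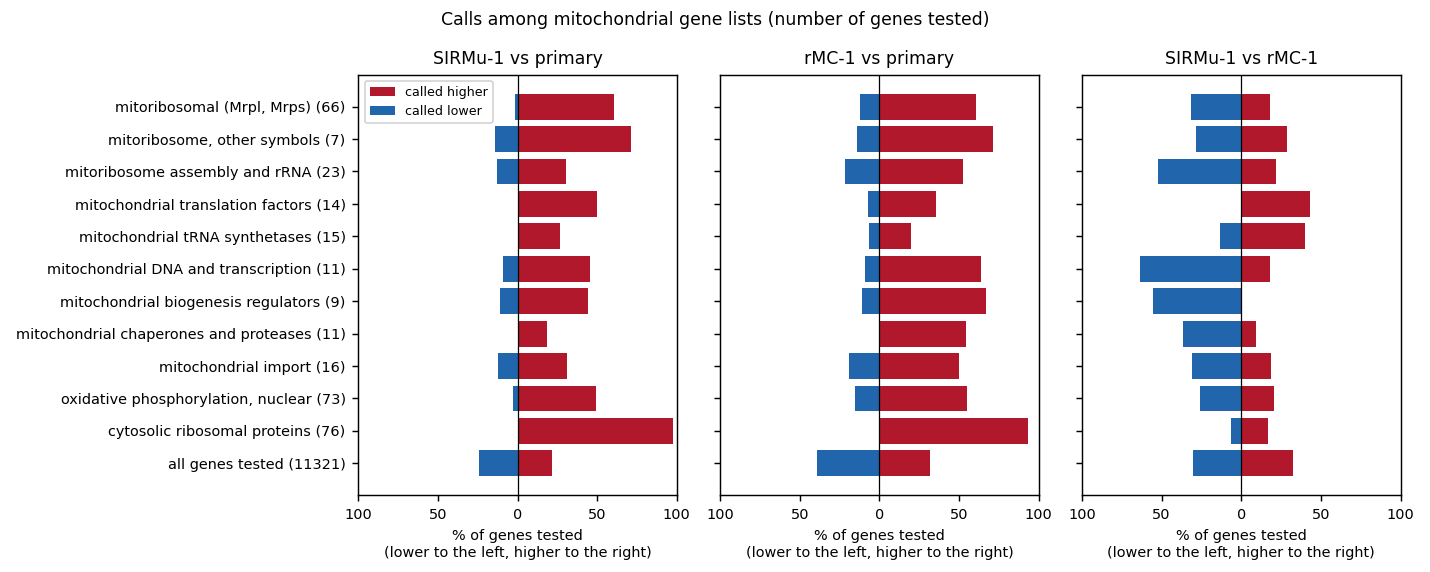
Share of the genes tested in each list that were called higher (red, to the right) or lower (blue, to the left) in each comparison, with the number of genes tested in brackets and all genes tested at the foot. Cytosolic ribosomal protein genes have the highest share called higher against primary cultures (97.4% in SIRMu-1 and 93.4% in rMC-1), and the Mrpl and Mrps genes have 60.6% in both.

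Genes of mitochondrial DNA upkeep and transcription were mostly higher in rMC-1, with 7 of 11 called higher and 1 lower than in primary cultures, beside 5 higher and 1 lower in SIRMu-1. As shares, 63.6% were called higher in rMC-1, beside 31.9% of all genes, and 45.5% in SIRMu-1, beside 21.7%. Called lower were 9.09% in each line, beside 38.9% of all genes in rMC-1 and 24.4% in SIRMu-1. Tfam, which packages mitochondrial DNA and starts its transcription, had 29.0 to 37.5 CPM in SIRMu-1, 95.4 to 113 CPM in rMC-1 and 18.2 to 21.1 CPM in primary libraries. The 3 groups did not overlap (0.75 ± 0.10 in SIRMu-1, edgeR adjusted p = 0.000123, and 2.38 ± 0.11 in rMC-1, edgeR adjusted p = 2.93e-08). Of 9 regulators of mitochondrial biogenesis 4 were called higher and 1 lower in SIRMu-1, and 6 higher and 1 lower in rMC-1. The shares called higher were 44.4% in SIRMu-1, beside 21.7% of all genes, and 66.7% in rMC-1, beside 31.9%. Gabpb1, a subunit of the factor that reads the ETS core, had 13.5 to 16.2 CPM in SIRMu-1, 13.6 to 16.4 CPM in rMC-1 and 7.18 to 8.42 CPM in primary libraries (0.92 ± 0.12 and 0.98 ± 0.13 in the lines). Nrf1 was called higher in SIRMu-1 (0.41 ± 0.14) and in rMC-1 (1.47 ± 0.16), and Myc in rMC-1 (2.34 ± 0.28). Ppargc1a, a coactivator known as a driver of mitochondrial biogenesis, had 0 to 0.0944 CPM in SIRMu-1, 0 to 0.0285 CPM in rMC-1 and 0.358 to 4.79 CPM in primary libraries, and was called lower in both lines.

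Other mitochondrial lists and the cytosolic ribosome set the scale. Of all genes, 21.7% were called higher and 24.4% lower in SIRMu-1, and 31.9% and 38.9% in rMC-1, against primary cultures. Between SIRMu-1 and rMC-1, 32.7% of all genes were called higher and 30.5% lower. Of 73 nuclear genes of oxidative phosphorylation 36 were called higher and 2 lower in SIRMu-1 (median 0.30), and 40 higher and 11 lower in rMC-1 (median 0.38), against primary cultures. Between SIRMu-1 and rMC-1 15 were higher and 19 lower, with the complex I gene Ndufa12 at -1.19 ± 0.20 and the complex II gene Sdhd at -1.02 ± 0.09. Of 16 import genes 5 were called higher and 2 lower in SIRMu-1 and 8 higher and 3 lower in rMC-1, with Pam16 lower in both (-0.62 ± 0.15 and -1.31 ± 0.17). Of 11 chaperones and proteases 2 were called higher in SIRMu-1 and 6 in rMC-1, 0 lower in either. Phb2 stood at 0.58 ± 0.13 and 1.54 ± 0.14. In SIRMu-1 and rMC-1 the shares called higher were 49.3% and 54.8% for oxidative phosphorylation and 31.2% and 50% for import. For chaperones and proteases they were 18.2% and 54.5%. Of 76 cytosolic ribosomal protein genes 74 were called higher in SIRMu-1 and 71 in rMC-1, 0 lower in either, with medians of 1.32 and 1.24. These genes have many near-identical copies, so their counts are uncertain. Transcripts encoded by mitochondrial DNA were not analysed here.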

How the data were processed

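The submitters' processing notes name the build rn6 and the tools STAR 2.5.3a, cutadapt 1.8.1 and edgeR 3.18.1. Which tool counted, and with which annotation and strand setting, was not given in the sources used here. Whole-number read counts for 17315 genes per library were deposited, and the authors also deposited log2 CPM values of 10236 genes, which edgeR's log2 CPM with a prior count of 0.25 rebuilt to within 5e-14. Of mapped reads, 24.8% to 30.9% lay outside genes, 9.64% to 12.6% mapped to several places and 0.154% to 0.197% were ambiguous. These entered neither library sizes nor tests, so genes with near-identical copies are undercounted to an unknown degree.

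Counts were filtered with filterByExpr of edgeR over the 3 groups (11321 genes tested, 5994 not) and fitted with edgeR 4.0.16 in R 4.3.3 as 3 group means with TMM factors and 9 residual degrees of freedom. The fit was tested on simulated data. The samples were grouped by their labels. The members and lists were chosen with earlier results of these data known, and the lists are from general knowledge. Single members were chosen for description by rule. The rule took the 5 largest called rises and falls per comparison whose libraries did not overlap, and the members called against the majority. It also took the Mrps18 relatives, landmarks of the particle, and the 2 largest rises and falls of other lists, of which some are named. Not all members so chosen are described in full. Mrpl32 (0.49 ± 0.13) and Mrpl50 (0.58 ± 0.15), called higher in SIRMu-1 than in rMC-1, are named only here. Levels per coding length were planned and are not given, because protein lengths were not used here. Symbols were matched to RefSeq on GRCr8 for names and promoter windows alone, 68 members by symbol and 1 by synonym. The alternatives used DESeq2 1.42.0 and limma 3.58.1, other scalings and filters, and left-out libraries.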

Additional observations from a re-analysis of the deposited data

Results flagged for a closer look

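By a gap test at the 95% level, 1 library stood apart from its group in 5 of 132 pairs of a member and a group (3.79%). Chance gives about 1 in 20. The gap test was run within SIRMu-1 and primary cultures alone, and rMC-1 was not examined. In SIRMu-1 replicate 5, Mrpl17 was at 111 CPM, against 137 to 140 CPM in the other SIRMu-1 libraries, and Mrpl52 at 44.2 CPM, against 59.4 to 62.7 CPM. The same library had Mrps18b at 28.9 CPM, above the 26.5 to 27.1 CPM of the others. In SIRMu-1 replicate 2, Mrpl34 was at 25.2 CPM, against 14.8 to 16.5 CPM. In primary replicate 3, Mrps25 was at 23.9 CPM, below the 27.2 to 27.7 CPM of the other primary libraries. SIRMu-1 replicate 5 had the highest passage of its line, 20, and the drugs.

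The effect relative to primary cultures differed between the lines in direction, with both effects called, for Mrpl52, Mrps25 and Mrps7. The call of the Mrps7 fall in rMC-1 was not kept in 15 of 21 other settings. That of the Mrps25 fall in SIRMu-1 was not kept in 3 of 22. The direct difference of SIRMu-1 from rMC-1 was 1.24 for Mrpl52, -1.19 for Mrps25 and 0.82 for Mrps7 on the log2 scale, and each passed edgeR's test.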

How the results depend on the processing

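With library totals alone in place of TMM, 0 members were called lower in SIRMu-1 than in primary cultures, 3 were lower in rMC-1 with a median of 1.01, and SIRMu-1 against rMC-1 had 4 higher, 45 lower and a median of -0.59. Under it Mrps7 (0.09) and Mrpl44 (0.19) turned positive in rMC-1 against primary cultures, and Mrps14 (-0.17) and Mrpl44 (-0.06) negative in SIRMu-1 against rMC-1. With libraries summed where their deposited names carry the same code, 24 members were higher and 0 lower in SIRMu-1 and 4 lower in rMC-1, against primary cultures, and 5 were higher in SIRMu-1 than in rMC-1, with fewer samples. Of 11321 genes that fit called 3072 in SIRMu-1 and 7357 in rMC-1, against primary cultures, and 5745 between the lines. With the SIRMu-1 cultures with drugs alone, 18 members were higher and 0 lower than in primary cultures, where 3415 of 11535 genes were called either way. The count lower in rMC-1 was 5 without a filter on low counts, 5 with the 2 groups compared alone and 5 with a block term for the replicate number.

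The replicate numbers do not pair the cultures. The deviations of 10 same-numbered pairs correlated at -0.06 to 0.10, and 4 of 12 libraries correlated best with their own number. Left-out libraries aside, the other counts and medians, with or without the replicate block, moved less than 1.5 times or within the spread.

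Leaving out each library gave 29 to 39 members higher, 1 lower and a median of 0.33 to 0.44 for SIRMu-1 against primary cultures. For rMC-1 against primary cultures it gave 37 to 46 higher, 4 to 9 lower and a median of 0.51 to 0.71. For SIRMu-1 against rMC-1 it gave 6 to 12 higher, 19 to 29 lower and a median of -0.31 to -0.11. The medians of 0.71 and -0.31 came without rMC-1 replicate 2 and moved beyond the spread. The drug comparison had 0 members called in every setting run. Of the settings tried on single members chosen by rule, 1236 matched the main fit, 118 lost a call and 6 gained one. A match means called in both fits or in neither, so the 1236 are not all kept calls. Another 4 changed sign with a call in at least 1 of the 2 fits. The 1236 include changes of sign where neither fit gave a call, as for Mrps18b in both comparisons with rMC-1. The cause was not tested. Depth limits Mrpl1, and Mrpl30, Mrpl36 and Mrpl53 were too low to test.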
